A study of Mus musculus with 12 samples.

Results

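The interaction of stimulation and cycloheximide was examined as a difference of differences: the change with stimulation in cycloheximide (CHX)-treated EL-4 cells minus the change with stimulation in vehicle-treated EL-4 cells, for every probe set that the array annotation pairs with exactly 1 gene symbol. These members numbered 21789 of 35399 deposited probe sets and stood for 19938 genes; 1621 probe sets with several symbols and 11989 with none were left out. The EL-4 line is a mouse T lymphoma line that makes cytokines when stimulated. The phorbol ester PMA and the calcium ionophore ionomycin, together P/I, bypass the T cell receptor by activating protein kinase C and raising intracellular calcium. CHX stops ribosomes from elongating, so mRNA changes that need a newly made protein cannot occur in its presence. The comparison asks which parts of the P/I response differ when no new protein can be made.

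There were 4 groups of 3 arrays. EL4_DMSO_unstim cells received DMSO, the CHX solvent, for 30 min and no P/I (0 h of stimulation). EL4_DMSO_PMAIoM cells received DMSO for 30 min and then 10 ng/ml PMA with 1 µM ionomycin for 4 h. EL4_CHX_unstim cells received 10 µg/ml CHX for 30 min and no P/I, and EL4_CHX_PMAIoM cells received the same CHX followed by 4 h of P/I. All groups are the same cell line, and each gives the average of a bulk culture, in which fewer responding cells and less RNA per cell cannot be told apart. The labels do not say that the unstimulated CHX cells stayed in CHX for 4 h more. The length of CHX exposure and the presence of P/I therefore cannot be told apart in the interaction or in the P/I response in CHX. Where a rise or fall with P/I in CHX is given below, it names that contrast and not its cause. Of 9 measured T cell identity markers, 8 had a group mean over log2 7 in every group (the exception was Trat1, with a mean of 4.19 in EL4_DMSO_unstim), and none of 8 B cell, 10 myeloid or 7 erythroid and fibroblast markers did. Replicate arrays of a group correlated between 0.983 and 0.994, and those numbered 1 deviated most from their group means, with a mean SD of 0.187 on the log2 scale against 0.136 and 0.126 for replicates 2 and 3.

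Genes that answer P/I fall into classes known from earlier work on cultured cells. Immediate early genes are switched on by transcription factors already present in the cell, their mRNAs are short-lived, and CHX is known to raise them further, a behaviour called superinduction. Secondary response genes, which include many cytokines, need factors that must first be translated. Misfolded protein in the endoplasmic reticulum (ER) switches on a further programme, the unfolded protein response, and shortage of amino acids or other stress raises genes through the factor ATF4, the integrated stress response.

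A called value here has a limma p-value under 0.1 after Benjamini-Hochberg adjustment over the 23410 probe sets with at least 1 symbol, and "rose", "fell" and "changed" are used only for called values. A lower interaction means that the P/I response was less positive, or more negative, with CHX than with DMSO, and a higher one the reverse. Across members the interaction was called for 1281 probe sets as higher and 1699 as lower, against 6.04% and 7.62% of all probe sets tested and 13.7% in either direction. The median of the called values was 0.76 for higher and -0.88 for lower interactions on the log2 scale. A size over 1 log2 unit was seen for 376 higher and 679 lower probe sets, and over 2 units for 65 and 112. The differences of differences taken within each replicate number had the same sign in all 3 for 1280 of the higher and 1697 of the lower calls, and for 51.2% of all members. These differences average to the interaction that was tested, so the counts among calls restate the same values and are no separate evidence. The calls nearest to the threshold on the inside were Diras1 at 0.35, Hoxd3 at 0.41, Myocos at 0.42 and Sertad1 at 1.01 among the higher, and Manea at -0.77, Slc36a1 at -0.55, Fgf21 at -0.51 and Akap8 at -0.49 among the lower. On quantile-normalised values the split was 1917 higher and 1539 lower. Without all 4 arrays numbered 1 the calls were 2110 higher and 2296 lower, without those numbered 2 they were 356 and 810, and without those numbered 3 they were 221 and 444.

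**Figure D1:**
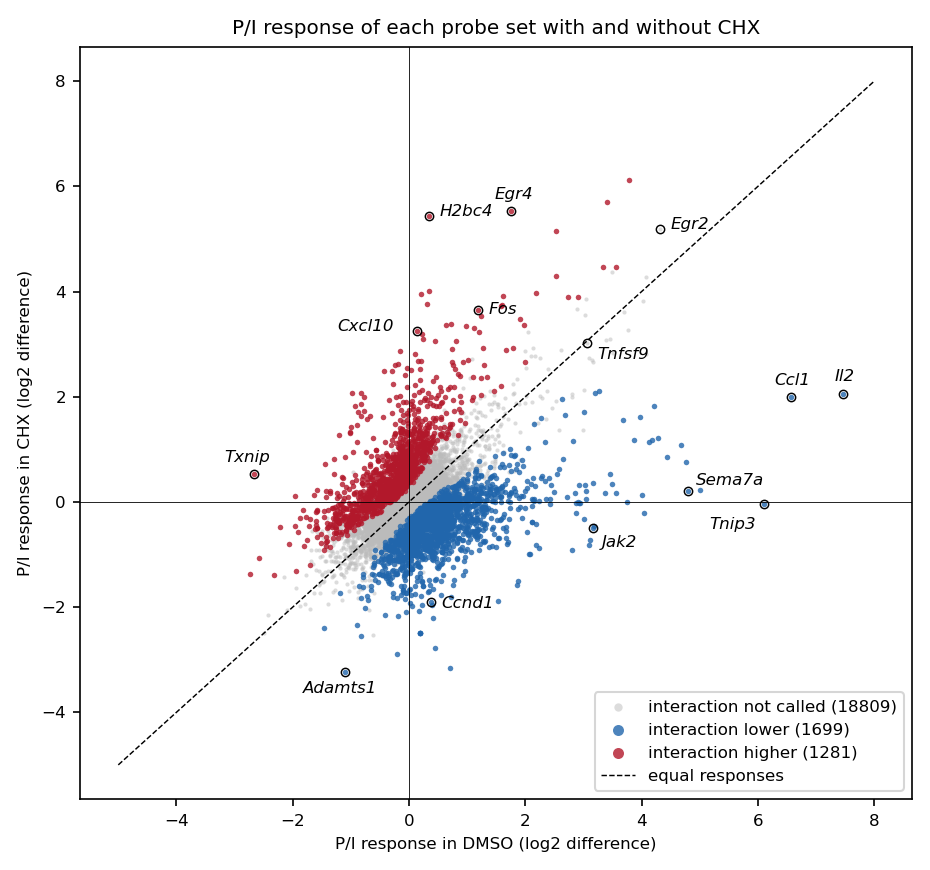
The P/I response in DMSO (x axis, log2 difference of group means) is plotted against the P/I response in CHX (y axis, same unit) for each of the 21789 probe sets, with the dashed line marking equal responses. Blue points (1699) have a lower called interaction and lie below the line, red points (1281) have a higher one and lie above it, and circled genes are named.

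For most called interactions the CHX effect was larger in stimulated than in unstimulated cells. Without stimulation CHX raised 7 probe sets (0.0299% of those tested) and lowered 0 by limma, where 1608 probe sets had an unadjusted p under 0.05, 641 of them lower with CHX. The 7 were Arrdc3, Clk1, Fkbp7, Rasl11b, Zfp217, Zfp263 and Zfp87. Arrdc3, an alpha-arrestin, rose by 1.69 log2 units, and Clk1, a kinase of splicing factors, by 1.03. During P/I, CHX raised 13.2% and lowered 12% of the probe sets tested. The labels do not say that the 2 CHX groups had the same length of exposure. Exposure length and P/I therefore cannot be told apart in this contrast. Among members with a higher interaction, CHX during P/I was also called higher for 1192 of 1281, and among those with a lower interaction it was called lower for 1627 of 1699. The CHX effect was larger in size with P/I than without for 94.9% and 96.4% of the higher and lower calls. These shares are a description, because the interaction is built from the same arrays.

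The responses themselves were compared next. P/I raised 2042 members in DMSO (9.05% of probe sets tested rose) and lowered 1910 (8.42%), and in CHX 10.2% of probe sets tested rose and 11.6% fell. The DMSO and CHX responses share no array. The response in CHX also holds any effect of a longer CHX exposure, which was not tested. Of the 2042 members that rose in DMSO, 719 (35.2%) also rose in CHX, 1048 were not called in CHX and 275 (13.5%) fell in CHX. Of the 1910 that fell in DMSO, 912 (47.7%) also fell in CHX, 924 were not called and 74 rose. Across members, which are not independent replicates, the 2 responses had a Pearson r of 0.41. The interaction test itself was called lower for 77, 566 and 275 of the members that rose in DMSO and, in CHX, rose, were not called or fell. Without the arrays numbered 2 these were 25, 316 and 118, without those numbered 3 they were 13, 228 and 63, and without those numbered 1 the 77 and the 275 became 127 and 441.

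Interactions took several forms. The largest form with a lower interaction had no called response in DMSO and a fall in CHX, at 646 members, with a median response of 0.09 in DMSO and -0.73 in CHX on the log2 scale. Its largest examples were Usp31, a deubiquitinase, at -2.33, and the cyclins Ccnd1 and Ccne2. The largest form with a higher interaction had no called response in DMSO and a rise in CHX, at 637 members (423 without EL4_CHX_PMAIoM replicate 3), with a median response of -0.06 in DMSO and 0.78 in CHX. In a further 316 members (209 without EL4_DMSO_unstim replicate 3) P/I lowered the probe set in DMSO and no change was called in CHX. In 89 members the rise was called in both and was larger in CHX, and in 73 lower interactions neither response was called on its own. Without the arrays numbered 2 the 646, 637, 316 and 89 became 319, 229, 73 and 33, and without those numbered 3 they became 123, 138, 42 and 24. The 316 and the 89 became 542 and 175 without the arrays numbered 1, and the 316 became 493 on quantile-normalised values.

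**Figure D2:**
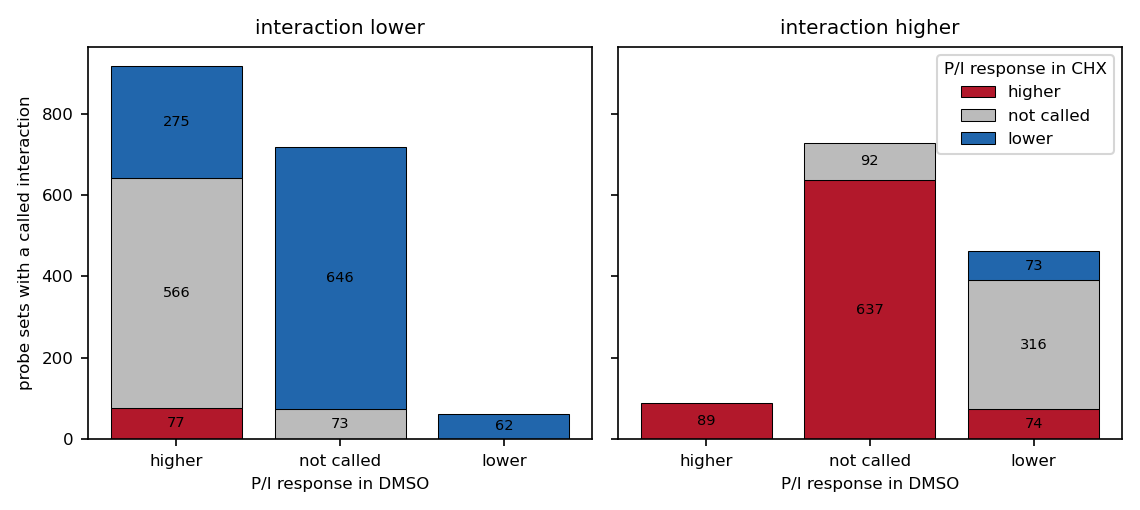
Bars count the probe sets with a called interaction (y axis) by the P/I response in DMSO (x axis) and, in colour, by the P/I response in CHX, for lower (left) and higher (right) interactions. The tallest segments are members that fell only by the CHX test (646), that rose only by the CHX test (637) and that rose only by the DMSO test (566).

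The largest lower interactions were losses of induction. Tnip3, an A20-binding protein gene, is in the list of NF-kB inhibitors and feedback genes. It read 4.68, 5.04 and 4.59 in EL4_DMSO_unstim, 10.99, 10.50 and 11.10 in EL4_DMSO_PMAIoM, 4.67, 4.65 and 4.80 in EL4_CHX_unstim and 4.69, 4.78 and 4.54 in EL4_CHX_PMAIoM. Only the stimulated DMSO arrays were high, and the other 9 overlapped. P/I raised Tnip3 68.5-fold in DMSO, the response in CHX was -0.04 on the log2 scale, and the interaction of -6.13 ± 0.22 (SE, n = 3 per group) was the largest of either sign. The axon-guidance family member Sema7a had the same pattern, from 5.68 to 5.75 in EL4_DMSO_unstim to 10.34 to 10.71 with P/I, against 5.75 to 6.17 with P/I in CHX, and an interaction of -4.58 ± 0.17. Slc5a12, a lactate transporter, had an interaction of -3.77 ± 0.16, and Crtam, an adhesion receptor of activated T cells, -3.38 ± 0.17. Neither had a called response in CHX.

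Secreted T cell signals were represented by 19 measured cytokine genes. P/I raised 12 of them in DMSO and 7 in CHX, and the interaction was lower for 7 (36.8%) and higher for 0, with a median of -0.35 against 0.05 over all probe sets tested. Il2, the T cell growth factor, read 4.43, 4.57 and 4.67 before P/I and 12.36, 11.56 and 12.13 after it in DMSO. In CHX it read 4.38, 4.71 and 4.85 before and 8.63, 5.45 and 6.03 after. Il2 therefore rose in both, 176-fold in DMSO and 4.17-fold in CHX, the stimulated groups did not overlap, and the interaction was -5.40 ± 0.85. The first replicate stood above the other EL4_CHX_PMAIoM arrays for Il2, and likewise for Il4 at 6.75 against 4.85 and 5.12, for Irf4 at 6.71 against 4.79 and 4.78 and for Csf2 at 8.16 against 5.19 and 5.87.

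Il4, which directs T helper 2 cells, had an interaction of -4.0 ± 0.64, and Csf1, which supports macrophages, one of -2.69 ± 0.32 with a rise in both conditions. The T helper 2 cytokine Il5 had -2.24 ± 0.45 and the anti-inflammatory Il10 -1.48 ± 0.26, and neither had a called response in CHX. Csf2, which supports granulocytes and macrophages, had -3.06 ± 0.96 with an adjusted p of 0.070 by limma, and 9 of the 12 settings that left out 1 array took it over the threshold (adjusted p from 0.11 to 0.16). Il2, Il4 and Il5 lost their calls without all arrays numbered 3, where the cytokine list held 2 lower calls. Tnf, at 0.88 ± 0.38, and Ifng, at 0.38 ± 0.21, were not called; both had a called rise in each condition. The 95% confidence interval of the Tnf interaction ran from 0.06 to 1.70 and that of Ifng from -0.06 to 0.83.

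Among 11 chemokines the interaction was lower for Ccl1 and Ccl5 and higher for Cxcl10. Ccl5, at -0.60, lost its call in 6 of the 12 settings that left out 1 array. Ccl1, which attracts CCR8-bearing T cells, read 5.22 to 5.42 before P/I and 11.61 to 12.27 after it in DMSO, against 5.02 to 5.21 and 6.53 to 7.93 in CHX, giving -4.57 ± 0.40. Cxcl10, an interferon-responsive ligand of CXCR3, moved the other way. It read 5.01, 5.08 and 5.26 before and 5.29, 5.22 and 5.22 after P/I in DMSO, and 4.96, 4.88 and 5.15 before and 8.37, 8.19 and 8.15 after P/I in CHX. The stimulated CHX arrays alone were high, and the interaction was 3.11 ± 0.14. Ifnz, a type I interferon of the Ifn cluster, was higher by 3.67 ± 0.35 and Ccrl2, a chemerin-binding receptor, by 2.85 ± 0.39. Of 20 interferon-stimulated genes 4 had a higher and 0 a lower interaction: Irf9 (1.62), Irf1 (1.34), Ddx58 (0.97) and Oas3 (0.56). The count was 1 without the arrays numbered 2 or 3. The Ifit, Mx and Rsad2 members of that list were not called.

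Of 18 TNF superfamily ligands and receptors, 9 (50%) had a lower and 2 a higher interaction, with 4 lower and 1 higher without the arrays numbered 3. Tnfrsf4, the costimulatory receptor OX40, read 5.29 to 5.52 before and 7.80 to 8.97 after P/I in DMSO, and 5.31 to 5.59 and 5.68 to 5.89 in CHX, with an interaction of -2.59 ± 0.32. Cd27, another costimulatory receptor, had -2.63 ± 0.13 and Tnfsf8, the CD30 ligand, -3.0. Tnfrsf18, the receptor GITR, had -1.05 ± 0.34, which lost its call in 8 of the 12 settings that left out 1 array. The exceptions were Tnfrsf1b, the second TNF receptor, at 1.53 ± 0.19, and Tnfrsf26 at 1.00. Tnfsf9, the 4-1BB ligand, rose in both conditions (8.33-fold in DMSO and 8.17-fold in CHX) with an interaction of -0.03 and an interval from -1.48 to 1.42. Of 21 activation and checkpoint molecules 6 were lower and 2 higher (Icos at 1.6 and Icam1 at 1.92, neither called without the arrays numbered 3), and the early activation marker Cd69 rose in both, with an interaction of -0.09 ± 0.52.

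Among 18 cytokine receptor chains 5 were lower (3 without the arrays numbered 3) and 1, Ifngr1, was higher. Both inducible chains of the IL-2 receptor were among the lower ones. Il2ra read 4.78 to 5.04 before and 6.24 to 7.67 after P/I in DMSO and did not pass 5.18 on any CHX array, with an interaction of -1.85 ± 0.38. Il2rb read 4.69 to 4.73 and 7.32 to 7.76 in DMSO and 4.61 to 4.77 on the 6 CHX arrays, with -2.89 ± 0.15. Ifngr1, the ligand-binding chain of the interferon gamma receptor, fell with P/I in both conditions, by 2.06 in DMSO and by 0.81 in CHX. Kinases downstream of such receptors also lost induction: Jak2 read 8.22 to 8.46 before and 11.12 to 11.72 after P/I in DMSO, and 8.23 to 8.48 and 7.72 to 8.05 in CHX, so that the rise of 3.16 became a fall of 0.50. Tec, a kinase of antigen receptor signalling, had the same form, with a rise of 3.18 in DMSO, a fall of 0.46 in CHX and an interaction of -3.64 ± 0.16.

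Of 19 transcription factors that act later or set T cell lineage, 7 had a lower and 0 a higher interaction (3 lower without the arrays numbered 3). Irf4, which acts in effector T cells, read 4.43 to 4.65 before and 8.22 to 9.47 after P/I in DMSO, and 4.47 to 4.66 and 4.78 to 6.71 in CHX, with -3.57 ± 0.63 (-3.09 and not called without the arrays numbered 3). Nfil3 had -1.96 ± 0.40 (lost without the arrays numbered 2 or 3), the B cell coactivator Pou2af1 -1.81, Irf8 -1.59, Stat5a -1.22, Zbtb32 -0.97 and Gata3 -0.95. Batf, Prdm1, Tbx21 and Bcl6, with interactions of -0.80, 0.02, 0.34 and 1.30, were not called.

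**Figure D3:**
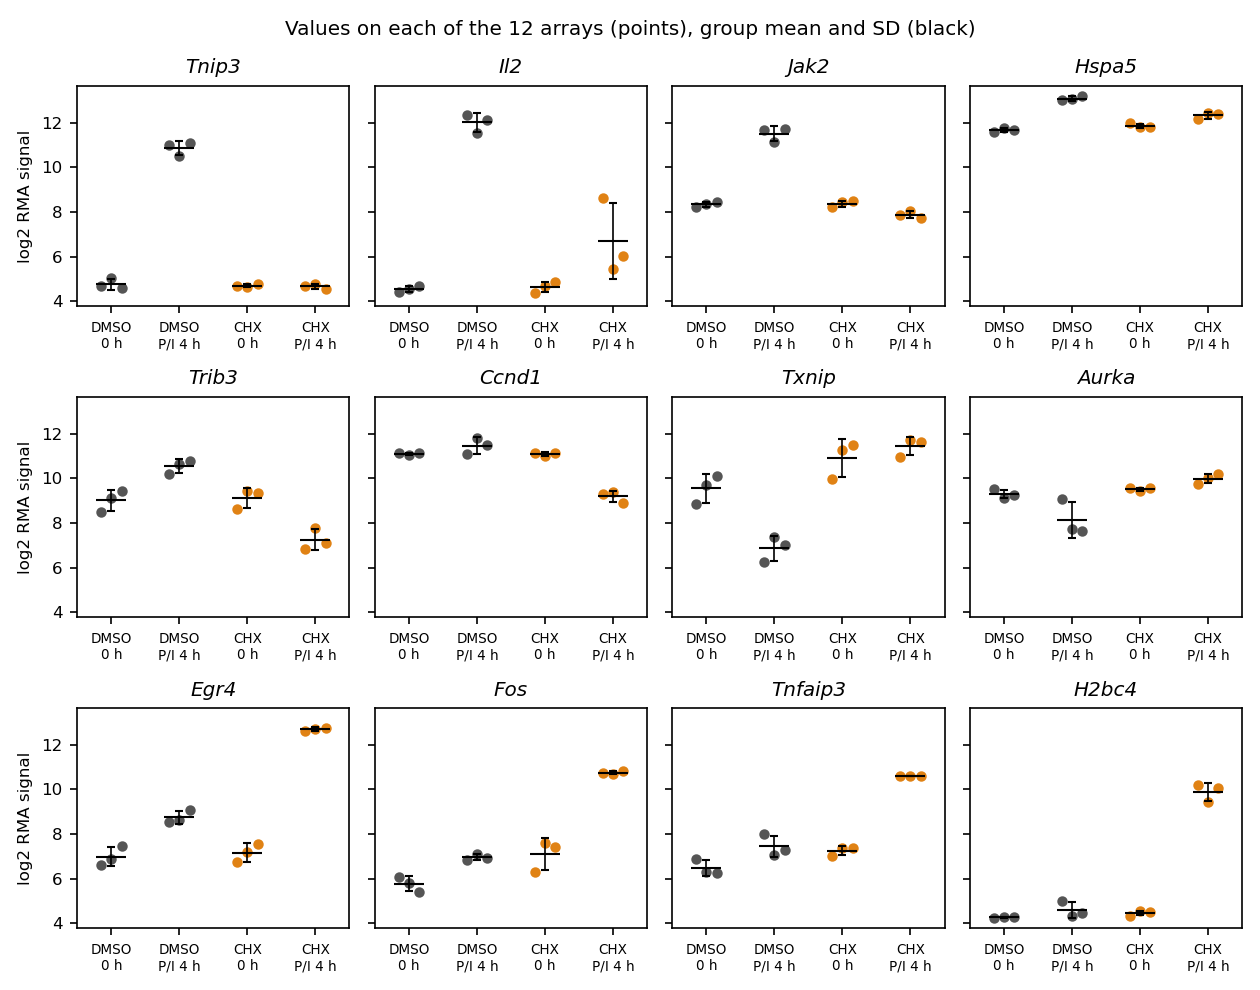
Each panel plots the log2 RMA signal (y axis) of 1 gene on the 12 arrays, in 4 groups of 3 (x axis), with points for arrays and a black bar with whiskers for the group mean and SD; grey marks DMSO and orange marks CHX. Tnip3, Il2 and Jak2 are high with P/I in DMSO, Egr4, Fos, Tnfaip3 and H2bc4 are highest with P/I in CHX, and Txnip and Aurka are lowest with P/I in DMSO.

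The reverse pattern was seen for immediate early transcription factors. Of 26 measured, 16 (61.5%) had a higher and 0 a lower interaction, with a median of 1.61. P/I raised 15 of them in DMSO and 24 in CHX. All stimulated arrays were taken after 4 h of P/I, so an earlier rise that had faded by then would not be seen. Egr4, a zinc finger factor, read 6.62, 6.90 and 7.45 before and 8.55, 8.63 and 9.06 after P/I in DMSO, and 6.74, 7.19 and 7.57 before and 12.60, 12.71 and 12.77 after P/I in CHX. It rose 3.38-fold in DMSO and 46.2-fold in CHX, and all 3 stimulated CHX arrays lay above all other arrays. Egr3 rose 5.78-fold and 35.6-fold, with an interaction of 2.62 ± 0.41. Egr2 rose 20-fold and 36.6-fold, and its interaction of 0.87 ± 0.58 was not called, with an interval from -0.40 to 2.14, though it passed at 1.38 (adjusted p 0.0996 by limma) without EL4_CHX_unstim replicate 3; Egr1, at 0.80 ± 0.87, was not called either.

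Among the AP-1 subunits, which dimerise to bind DNA, Fosb, Jun, Fos, Fosl2, Junb and Fosl1 were higher, and Jund was not called at 0.11. Their small Maf partner Maff was also higher. Fos read 6.10, 5.81 and 5.42 before and 6.86, 7.12 and 6.93 after P/I in DMSO, and 6.29, 7.62 and 7.41 before and 10.75, 10.71 and 10.81 after P/I in CHX. The CHX arrays without P/I ranged over those of stimulated DMSO cells, and the stimulated CHX arrays lay well above both. Its interaction was 2.46 ± 0.39. Fosb had 3.45 ± 0.62 and Jun 2.78 ± 0.63, and neither had a called response in DMSO at 4 h. Both lost their calls without the arrays numbered 2, and Jun also without those numbered 3. Nr4a3, an orphan nuclear receptor, rose 13.8-fold in DMSO and 70.0-fold in CHX. Without the arrays numbered 2 the list held 9 higher calls, and without those numbered 3 it held 10.

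RefSeq promoter windows (250 bases before to 50 after each start, GRCm38.p6) were at hand for 20 of the 26 immediate early genes and for 15562 measured genes in all. The letters of the EGR site, GCGNGGGCG on either strand, were in 8 of the 20 windows (40%) and in 9.33% of all. They were also in 13 of 46 windows (28.3%) of genes with a higher interaction over 2 log2 units. Genes such as Btg2 and Maff are in both sets, so these 2 shares are not independent. Over all called genes the EGR site was in 12.6% of windows with a higher and 15.1% with a lower interaction. The cyclic AMP response element TGACGTCA was in 2 of the 20 (10%) and in 2.72% of all. Over all called genes this element was in 4.82% of windows with a higher and 2.16% with a lower interaction. The CArG element, to which serum response factor binds, was also in 2 of the 20 (Egr2 and Srf, neither with a called interaction) and in 1.63% of all. The matches of the cyclic AMP response element are shown because both genes had a called higher interaction, with the 8 letters in capitals:
Btg2, chr1:134079309-134079326, minus strand: aataaTGACGTCAgtgag
Maff, chr15:79347486-79347503, plus strand: ggcggTGACGTCActgca

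Btg2, an antiproliferative cofactor, was higher by 2.67 ± 0.54 (2.47 and not called without the arrays numbered 2) and Maff, a small Maf partner of AP-1, by 2.18 ± 0.23. The AP-1 site TGANTCA was in 1 of the 20 windows (5%), near the 8.06% of all windows. The kB motif, which leaves its 5 middle bases open, was common in all sets: 73.1% of windows with a higher interaction, 73.6% with a lower one and 62.2% of all.

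NF-kB, a factor held in the cytoplasm by IkB proteins until they are degraded, was represented by 4 subunit genes and 16 inhibitor or feedback genes. All 4 subunits rose with P/I in both conditions, and 3 had a higher interaction. Relb read 6.12 to 6.15 before and 8.50 to 8.76 after P/I in DMSO, and 5.92 to 6.27 and 10.24 to 10.60 in CHX, with 1.77 ± 0.17. Rel had 0.91 ± 0.24 and Rela 0.90 ± 0.30, and Nfkb2, at 0.28 ± 0.23, was not called. The Rela call was lost in 8 of the 12 settings that left out 1 array, with values from 0.66 to 0.97, and without the arrays numbered 2 or 3 only 1 subunit was called. Of the inhibitor or feedback genes, 8 were higher (5 without the arrays numbered 2 and 4 without those numbered 3) and 3 lower. Tnfaip3, the ubiquitin-editing enzyme A20, read 6.25 to 6.89 before and 7.08 to 7.99 after P/I in DMSO, and 7.02 to 7.39 and 10.59 to 10.61 in CHX. The interaction was 2.37 ± 0.32. Birc3, a ubiquitin ligase, had 2.02 ± 0.26, and the IkB genes Nfkbia and Nfkbie 1.00 ± 0.22 and 1.16 ± 0.37, the latter lost in 7 of the 12 settings that left out 1 array.

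The 3 lower inhibitor or feedback genes were Tnip3, described above, Otud7b (-1.15 ± 0.15) and Tnip2 (-1.07), whereas Tnip1, another A20-binding protein, was higher by 1.31 ± 0.16. Tnip3 read 4.54 to 4.78 and Tnip1 read 8.58 to 8.91 on the stimulated CHX arrays, and against their own unstimulated CHX arrays Tnip3 overlapped and Tnip1 did not.

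Feedback enzymes of other signals and mRNA decay factors showed both directions. Dusp1 and Dusp8, phosphatases that switch off MAP kinases, were higher by 2.30 ± 0.41 and 2.62 ± 0.34, and Spred1, an inhibitor of Ras signalling, was lower by -1.04. Of 15 genes in that list 3 were higher and 2 lower, and the 2 became 1 in 10 of the 12 settings that left out 1 array. Socs3, an inhibitor of cytokine receptor signalling, was higher by 1.98 ± 0.31 without a called response in DMSO. Of 14 proteins that act on AU-rich or related mRNA decay, 4 were higher: Zfp36, which binds AU-rich elements, Tob2, Zc3h12a, an RNase, and Tob1. Zfp36 read 6.17, 6.80 and 7.0 before and 7.18, 7.53 and 7.18 after P/I in DMSO, and 6.68, 7.95 and 8.07 before and 10.90, 10.92 and 10.96 after P/I in CHX. Its interaction was 2.72 ± 0.44. Rc3h1, a decay factor for T cell mRNAs, was lower by -0.86.

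**Figure D4:**
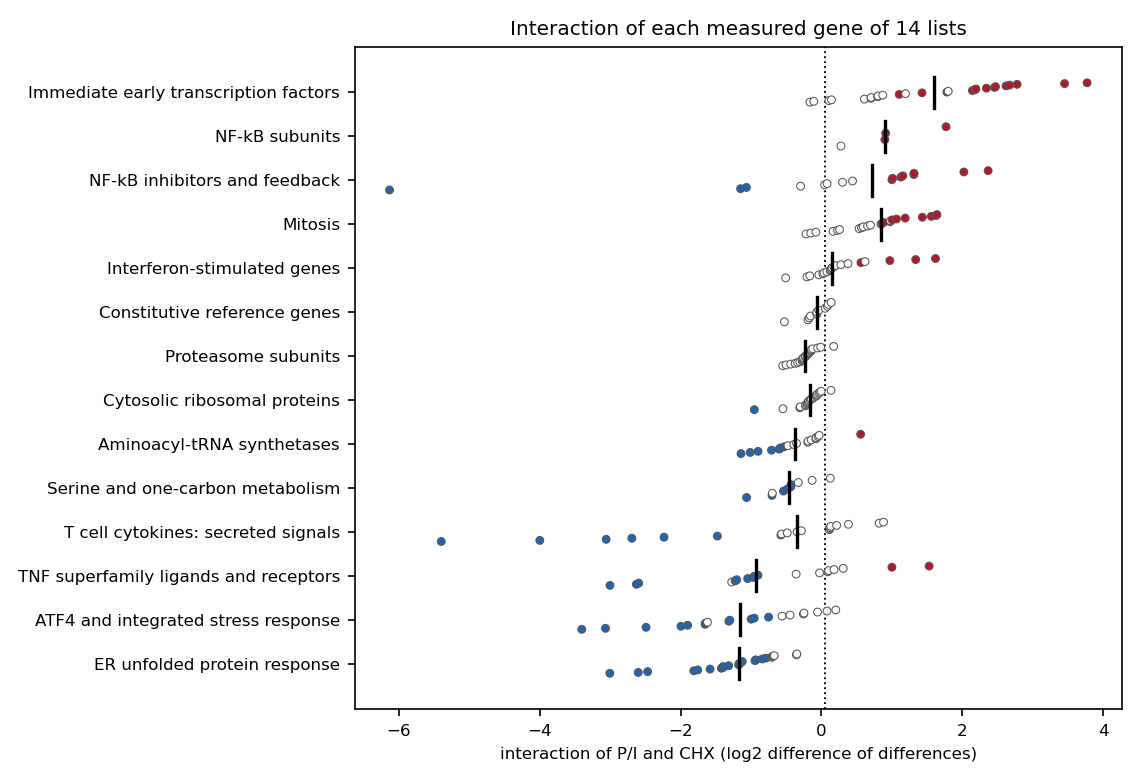
Each point is the interaction (x axis, log2 difference of differences) of 1 measured gene in 14 gene lists (y axis), filled red or blue where it was called higher or lower and open where it was not called; black bars are list medians and the dotted line is the median over all probe sets tested (0.05). Immediate early factors lie to the right (median 1.61) and unfolded protein response and ATF4 genes to the left (medians -1.17 and -1.15).

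The unfolded protein response was the list with the largest share of lower interactions among those described here. Of 24 measured genes 20 (83.3%) had a lower interaction and 0 a higher one, with a median of -1.17, and all 24 values were below 0. P/I raised 21 of the 24 in DMSO, and in CHX it raised 1 and lowered 6. A share of these promoters carries the ER stress response element, in which CCAAT and CCACG are 9 bases apart. It was found on either strand in 10 of 21 windows at hand (47.6%), against 21 of 15562 (0.135%) in all measured genes, 9 of 1202 (0.749%) with a lower interaction and 1 of 954 (0.105%) with a higher one. The elements of 6 of these genes are shown because they are the feature that the list shares in sequence, with the 2 fixed parts in capitals:
Hspa5, chr2:34772020-34772048, plus strand: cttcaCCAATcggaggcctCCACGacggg
Hsp90b1, chr10:86705528-86705556, plus strand: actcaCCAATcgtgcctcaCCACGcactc
Pdia6, chr12:17266486-17266514, plus strand: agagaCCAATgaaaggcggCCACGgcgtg
Creld2, chr15:88819515-88819543, minus strand: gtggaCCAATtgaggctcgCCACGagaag
Dnajc3, chr14:118937822-118937850, plus strand: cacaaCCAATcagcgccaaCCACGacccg
Syvn1, chr19:6046527-6046555, plus strand: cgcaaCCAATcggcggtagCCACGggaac

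Of the 10 genes with the element, 9 had a called lower interaction, and Canx, at -0.35, was not called. These 9 are the same genes as the 9 counted above over all lower interactions, so that share restates the list. A match is a match of letters, and no binding was measured.

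ER chaperones and folding enzymes came first. Hspa5, the chaperone BiP, read 11.59, 11.77 and 11.70 before and 13.00, 13.06 and 13.20 after P/I in DMSO, and 11.98, 11.80 and 11.81 before and 12.16, 12.43 and 12.41 after P/I in CHX. It rose in both, 2.64-fold in DMSO and 1.38-fold in CHX, and the stimulated groups did not overlap. The interaction was -0.93 ± 0.14. Creld2, an ER protein of the same response, read 9.08 to 9.57 before and 10.86 to 11.36 after P/I in DMSO, and 9.03 to 9.49 and 9.28 to 9.43 in CHX. Its interaction of -1.58 ± 0.23 and that of the chaperone Hyou1, -1.42 ± 0.21, left no called response in CHX. The oxidase Ero1b had -1.76 ± 0.15 and the disulphide isomerases Pdia4, Pdia6 and Pdia3 had -1.81, -1.17 and -1.14.

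Genes of ER-associated degradation came next. Herpud1, a membrane component of that pathway, read 9.84, 10.06 and 10.33 before and 12.27, 12.04 and 12.47 after P/I in DMSO, and 10.17, 10.29 and 10.16 before and 9.27, 9.42 and 9.45 after P/I in CHX. The stimulated DMSO arrays were the highest and the stimulated CHX arrays the lowest, with no overlap among these or with the unstimulated arrays. The interaction was -3.01 ± 0.19. Sel1l, the partner of the ubiquitin ligase Syvn1, had the same form with -2.47 ± 0.19, and Syvn1 itself had -1.39. Dnajb9, a BiP cochaperone, had -2.60 ± 0.24. Xbp1, a transcription factor of the response, was not called at -0.70.

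**Figure D5:**
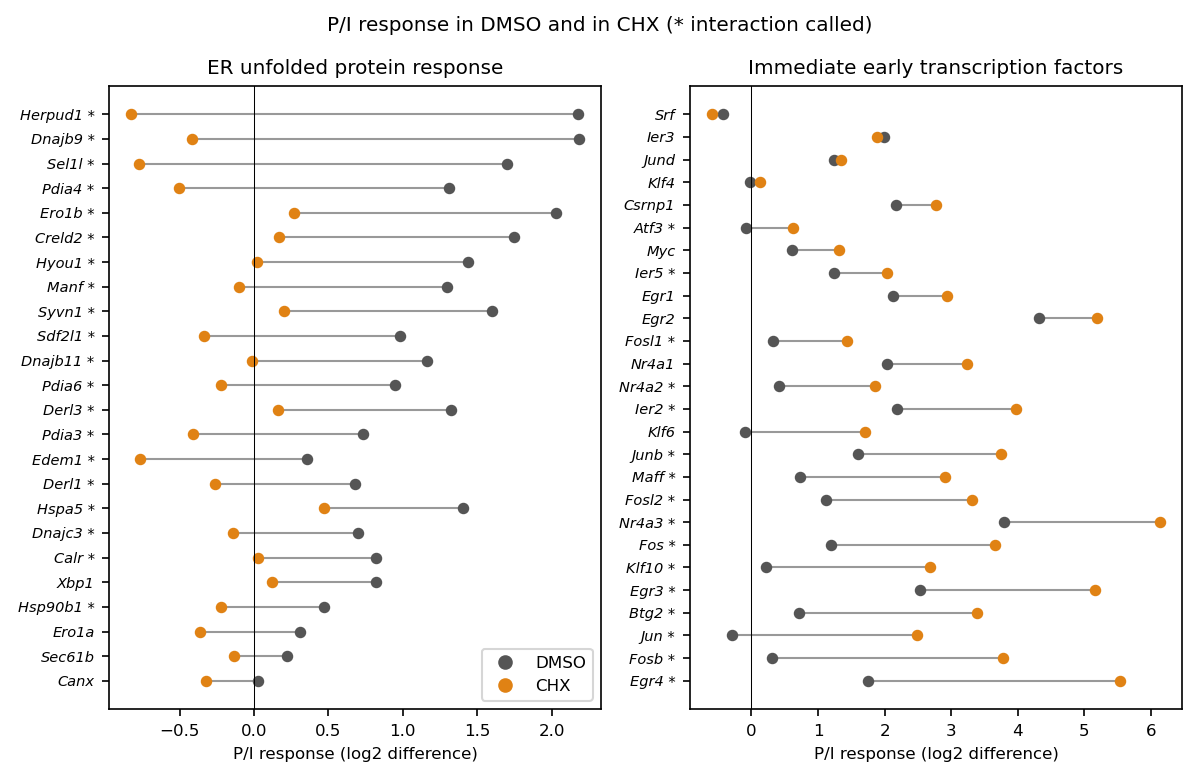
The P/I response (x axis, log2 difference of group means) in DMSO (grey) and in CHX (orange) is joined by a line for each measured gene (y axis) of the unfolded protein response (left) and of the immediate early transcription factors (right), and a star marks a called interaction. All 24 genes on the left have the orange point to the left of the grey one, and 24 of the 26 genes on the right have it to the right.

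Genes of the ATF4 pathway went in the same direction. Of 20 measured, 12 (60%) had a lower and 0 a higher interaction, with a median of -1.15, and P/I raised 13 in DMSO, while in CHX it raised 3 and lowered 10. Trib3, a pseudokinase that feeds back on ATF4, read 8.51, 9.13 and 9.43 before and 10.19, 10.65 and 10.80 after P/I in DMSO, and 8.63, 9.42 and 9.34 before and 6.86, 7.78 and 7.11 after P/I in CHX. A rise of 1.53 thus stood against a fall of 1.88, with an interaction of -3.40 ± 0.42. Chac1, which degrades glutathione, had -3.07 ± 0.34, Sesn2, a stress-inducible regulator of mTORC1, -2.49 ± 0.23, and the amino acid transporters Slc1a4 and Slc7a11 -2.0 ± 0.19 and -1.90 ± 0.36 (Slc7a11 was not called without the arrays numbered 2). Atf4 itself, at -0.25, and Asns, at -0.26, were not called. The CEBP-ATF element TGATGCAA was in 5 of 18 windows of this list (27.8%) and in 0.823% of all, and is shown for 4 with its letters in capitals:
Chac1, chr2:119351044-119351061, minus strand: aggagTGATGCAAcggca
Nupr1, chr7:126625568-126625585, plus strand: ctgtcTGATGCAAtctgg
Slc1a4, chr11:20332705-20332722, plus strand: ggagaTGATGCAAcgcag
Slc7a11, chr3:50443648-50443665, plus strand: catgaTGATGCAAattct

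Each of these 4 had a called lower interaction, and the remaining gene, Vldlr, at 0.08, was not called. Over all called genes the element was in 13 of 1202 windows (1.08%) with a lower interaction, these 4 among them. It was in 3 of 954 windows (0.314%) with a higher one.

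Amino acid enzymes next to that pathway had medians of -0.46 (serine and one-carbon metabolism) and -0.37 (aminoacyl-tRNA synthetases). Of 10 genes of serine and one-carbon metabolism 6 were lower, led by the mitochondrial enzyme Mthfd2 (-1.06 ± 0.14) and the serine synthesis enzyme Psat1 (-0.70 ± 0.11). That count fell to 3 without EL4_DMSO_PMAIoM, EL4_CHX_unstim or EL4_CHX_PMAIoM replicate 3, each left out alone, and on quantile-normalised values, and to 1 without all arrays numbered 3. Of 18 aminoacyl-tRNA synthetases, which charge tRNAs for translation, 7 were lower, led by Tars at -1.14 and Wars at -1.01 ± 0.20, and Vars was higher at 0.56. The 7 became 1 without the arrays numbered 3. In other parts of the translation and protein turnover apparatus limma called 0 of 25 proteasome subunits, 0 of 11 constitutive reference genes, 2 of 21 cytosolic ribosomal proteins and 1 of 29 ribosome biogenesis genes. At an unadjusted p under 0.05 these lists held 1, 1, 2 and 2. The medians of the proteasome and ribosome biogenesis lists were -0.23 and -0.43, and without the arrays numbered 1 they held 4 and 10 lower calls, with 1 higher in the latter. Values mostly below 0 were not particular to the unfolded protein response list. They were seen for 24 of 25 proteasome subunits, 20 of 21 cytosolic ribosomal proteins and 25 of 29 ribosome biogenesis genes. Aminoacyl-tRNA synthetases had 17 of 18 below 0, and constitutive reference genes 7 of 11. Actb, beta-actin, read 13.58 to 13.87 on all 12 arrays, with an interaction of 0.05 ± 0.12.

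Cell cycle genes were described by phase, and no test compared the phases. Ccnd1, cyclin D1 of the G1 phase, read 11.04 to 11.15 before and 11.09 to 11.83 after P/I in DMSO, and 10.99 to 11.16 and 8.91 to 9.40 in CHX. The interaction was -2.27 ± 0.24. Ccne2, cyclin E2, had -2.24 ± 0.36, and both genes fell in CHX and had no called response in DMSO. Of 18 genes of this list 6 were lower (3 without the arrays numbered 2 or 3) and 3 higher (0 without either by limma), the latter Cdkn2d (1.42) and Rbl2 (1.02), which restrain the cycle, and Ccnd3 (0.64). Of 23 mitosis genes 10 were higher and 0 lower, with a median of 0.85. P/I lowered 16 of the 23 in DMSO and 1 in CHX. Aurka, a spindle kinase, read 9.51, 9.12 and 9.28 before and 9.09, 7.72 and 7.64 after P/I in DMSO, and 9.56, 9.44 and 9.56 before and 9.77, 10.02 and 10.19 after P/I in CHX.

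Replicate 1 of the stimulated DMSO cells stayed near the unstimulated arrays for Aurka, and for the spindle protein Prc1 it read 8.93 against 7.38 and 7.77. Without that array 17 mitosis genes were called higher. Without EL4_CHX_unstim replicate 2, or replicate 3 of EL4_DMSO_PMAIoM, EL4_CHX_unstim or EL4_CHX_PMAIoM, 6 were, and without all arrays numbered 2 or all numbered 3 none were (limma). Of 26 DNA replication genes 1, Cdc6, which licenses origins, was lower at -1.03, and 0 were higher by limma (2 at an unadjusted p under 0.05). The higher count was 5 without EL4_DMSO_PMAIoM replicate 1, 6 without all arrays numbered 1 and 3 on quantile-normalised values.

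Replication-dependent histone genes were looked at after their values had been seen, because H2bc4 had the largest higher interaction. H2bc4 read 4.23, 4.30 and 4.28 before and 5.0, 4.34 and 4.48 after P/I in DMSO, and 4.34, 4.54 and 4.52 before and 10.20, 9.43 and 10.06 after P/I in CHX. It rose 43.2-fold in CHX and was not called in DMSO, with an interaction of 5.09 ± 0.28. Of 28 such genes measured 24 had a higher and 0 a lower interaction, with a median of 1.14. With P/I 0 rose in DMSO and 25 in CHX, where P/I and the length of CHX exposure cannot be told apart. H2ac1 (3.02 ± 0.19), H1f2 (2.52) and H2aw (2.48) were the next largest. These genes are near-identical copies in clusters, so probe sets of different members may read the same transcripts, and the number of independent genes behind the count is uncertain. Without the arrays numbered 2 the count was 15, and without those numbered 3 it was 11.

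Some genes of the T cell quiescence, homing and FOXO list were lowered by P/I in DMSO but not in CHX. Of its 22 measured genes, P/I in DMSO raised 5 and lowered 5, and the median interaction was 0.15. Txnip, an alpha-arrestin that limits glucose uptake, read 8.85, 9.69 and 10.12 before and 6.27, 7.36 and 7.0 after P/I in DMSO, and 9.96, 11.29 and 11.51 before and 10.98, 11.71 and 11.64 after P/I in CHX. It fell 6.38-fold in DMSO, had no called response in CHX, and had an interaction of 3.20 ± 0.61 (3.17 and not called without the arrays numbered 3). Arrdc3, its relative, was higher by 2.32 ± 0.32 and fell in DMSO and rose in CHX. Klf2, a factor of quiescent T cells, had the same form with 2.48 ± 0.57, and its call was lost without the arrays numbered 2 or 3. The cyclin G2 gene Ccng2 fell in DMSO only by the test, with 2.07 ± 0.40 (also lost without the arrays numbered 2 or 3), and Tap1, a peptide transporter for antigen presentation, with 1.82 ± 0.26. In the list of 22 quiescence, homing and FOXO genes 4 were higher (2 without the arrays numbered 2 and 1 without those numbered 3) and 3 lower, the lower being Slfn2 (-2.36 ± 0.27), Lef1 (-2.01 ± 0.26) and Foxp1 (-0.66). Slfn2 and Lef1 rose with P/I in DMSO.

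Falls that were called in both conditions could differ in either direction. Adamts1, a secreted protease, read 8.11 to 8.42 before and 6.99 to 7.30 after P/I in DMSO, and 8.47 to 9.10 and 5.45 to 5.81 in CHX, so that P/I lowered it 2.16-fold and 9.40-fold. Gcsam, a lymphocyte signalling adaptor, went the other way, from 7.99 to 8.46 to 5.50 to 5.81 in DMSO and from 8.05 to 8.74 to 7.23 to 7.52 in CHX, with an interaction of 1.51 ± 0.25. The form that Adamts1 belongs to held 62 members and that of Gcsam 73. These counts fell to between 31 and 41 and to between 39 and 48 in 6 settings each that left out 1 array, and the latter rose to 182 without EL4_DMSO_PMAIoM replicate 1. They were 140 and 216 without all arrays numbered 1, 5 and 9 without those numbered 2, and 6 and 5 without those numbered 3. The 62 became 37 with median centring, and the 73 became 115 on quantile-normalised values.

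Components of the T cell receptor pathway went both ways, with 5 of 23 lower and 5 higher. Without the arrays numbered 2 these were 3 and 2, and without those numbered 3 they were 2 and 1. The phosphatase Ptpn22, which dampens receptor signalling, had -2.11 ± 0.16, the scaffold Malt1 -1.32 and the kinase Fyn -1.20. The partner of Malt1 in the same complex, Bcl10, was higher by 1.03 (not called without the arrays numbered 2 or 3), and the exchange factor Rasgrp1, a target of phorbol ester, by 1.31. Of 14 calcineurin and NFAT genes 4 were lower (2 without the arrays numbered 2 and 0 without those numbered 3), among them the calcineurin subunits Ppp3ca (-1.07), Ppp3cc (-0.99) and Ppp3r1 (-0.65), and 1, the kinase Dyrk1a, was higher at 0.98. Of 12 Bcl2 family and related genes 4 were lower (2 and 1 without the arrays numbered 2 and 3), including the survival genes Bcl2l1 (-1.55 ± 0.27) and Bcl2 (-1.14). In the same list 2 were higher, the death-promoting Bad (0.53) and Bcl10 named above, neither called without the arrays numbered 2 or 3, and the median was 0.07.

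Genes that the study uses as examples of inducible genes could also be placed. Zswim4 (0.48 ± 0.37), Adamts6 (0.69 ± 0.34), Usp54 (0.15 ± 0.18) and Gadd45g (-0.89 ± 0.67) rose in both conditions and had no called interaction. Adamts6 passed the threshold at 0.95 (adjusted p 0.082 by limma) without EL4_CHX_unstim replicate 3, and Gadd45g at -1.19 (adjusted p 0.0077) without all arrays numbered 1. The 95% intervals reached 1.29, 1.43, 0.55 and -2.35 at the end farther from 0. Hspa4l, a heat shock protein, rose in both and had a higher interaction of 1.21 ± 0.30 (1.16 and not called without the arrays numbered 3).

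The remaining lists held calls in both directions or few calls. Of 25 genes of RNA polymerase II elongation and histone modification 7 were higher, led by the elongation factor Aff1 (1.53), and 2 lower, of 15 heat shock chaperones 3 and 1, of 19 glycolysis and hypoxia genes 2 and 3, and of 18 cholesterol synthesis genes 2 and 1. Vegfa, the endothelial growth factor gene, had the largest size among the glycolysis and hypoxia genes at -2.23. Of 22 translation factors 1 was higher and 4 lower, and of 16 p53 targets 2 were lower, among them Gadd45a at -1.37. Of 14 genes of SOCS and STAT feedback 2 were higher, as were 2 of 11 Myc network genes and 1 of 12 splicing kinases and SR proteins, with 0 lower in these by limma and likewise 0 at an unadjusted p under 0.05. In each of these lists at least 1 of the counts moved by more than 1.5 times when single arrays were left out. Of 999 genes with several probe sets, 1, Gpatch8, had probe sets called in opposite directions, at 0.50 and -0.66.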

How the data were processed

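The authors hybridised 12 RNA samples to Affymetrix Mouse Gene 1.0ST arrays and deposited log2 values after robust multichip average (RMA) background correction and quantile normalisation in Partek (version not given in the sources used here). RMA compresses low signals, so fold changes of dim probe sets are understated. Replicates are biological by the study's methods, and 3 per group limit the precision. From the deposited log2 values, limma 3.58.1 in R 4.3.3 fitted 4 group means to 23410 probe sets with a gene symbol (residual degrees of freedom 8, prior 3.627), and p-values were adjusted by Benjamini-Hochberg over all of them (called at 0.1, two-sided). One probe set, that with the highest mean, stands for a gene in lists. Named genes were drawn from the 12 largest interactions of each sign, the 3 largest of each form and up to 4 per list by p. The 4 nearest the threshold and the study's examples were added. Not every gene that met these rules is described. Left out of the 12 largest were Pgap1 (-3.91), Abra (-3.88), Calcrl (-3.84) and Hbegf (-3.59) among the lower. Among the higher they were Cd209c (2.96), Hivep1 (2.91) and Neurl3 (2.86). Other list members were named after their values were seen. So were Hspa5, Trib3, Aurka, Il2ra, Btg2, Icam1, Egr1, Cd69, Ifng, Tnf, Actb, Slc7a11, Creld2, Hyou1, Il5 and Nfil3. The members, the 40 gene lists (747 entries, 683 of them measured) and the tests were chosen with earlier results of these data known. Promoter windows are from RefSeq, GRCm38.p6. The fit was tested on simulated data. The alternatives were a replicate block, median centring, quantile normalisation, other variance models, array weights, a signal filter (mean log2 5), other sets of probe sets, a threshold of 0.05, a linear scale, and leaving out each array or each replicate number.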

Additional observations from a re-analysis of the deposited data

Results flagged for a closer look

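The P/I response differed between CHX and DMSO by the interaction test itself for 1281 members in the positive and 1699 in the negative direction, which is why they stand out. Opposite called responses were found in 2 groups: 275 members rose with P/I in DMSO and fell in CHX, and 74 fell in DMSO and rose in CHX. These 74 became between 39 and 45 in 5 of the settings that left out 1 array and 129 without EL4_DMSO_PMAIoM replicate 1. They became 235, 5 and 7 without all arrays numbered 1, 2 and 3, and 134 on quantile-normalised values. The 275 became 441, 118 and 63 without all arrays numbered 1, 2 and 3. When single arrays were left out, the 275 stayed within 1.5 times. Probe sets without a gene symbol, which enter no comparison above, also held called interactions. When all deposited probe sets were fitted, 253 of the 11989 had a higher and 901 a lower called interaction. In the same fit 1126 higher and 1550 lower interactions were called among the 21789 members. In proportion, fewer probe sets without a symbol were thus called higher, and a similar part was called lower. The probe sets without a symbol have no gene name here, and what they measure was not tested.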

How the results depend on the processing

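With the replicate number as a block, 2181 higher and 2703 lower interactions were called, among them all 1281 and all 1699, and P/I in DMSO lowered 2923. The block also gave 17 lower and 1 higher ribosome biogenesis genes, 1 lower reference gene, 4 lower proteasome subunits, 7 lower translation factors, 6 higher and 4 lower DNA replication genes and 16 higher mitosis genes. Of 18 same-numbered pairs 17 had deviations correlated above 0.1 (lowest 0.064), and every array correlated best with one of its own number, which is a hint from the data and not from the design. Array weights gave 2631 higher interactions and, for P/I in DMSO, 3267 rises and 3477 falls. When 1 array or 1 replicate number was left out, counts ranged from 221 to 2110 for higher and 444 to 2296 for lower interactions, from 967 to 2712 for rises and 629 to 2857 for falls in DMSO, and from 982 to 2847 for rises and 1026 to 3381 for falls in CHX, the lowest without the arrays numbered 3. For single arrays all of these stayed within 1.5 times. The cause was not tested. The Tnfsf9 interaction, not called, changed sign and ranged from -0.64 to 0.37. Other normalisations, variance models, filters and the 0.05 threshold left both interaction counts within 1.5 times (854 to 1917 higher and 1317 to 1737 lower). The array signal near log2 4 to 5 limits what can be said of genes that were dim before stimulation.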
